A study of Mus musculus with 7 samples.

Results

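The small MAF genes Maff, Mafg and Mafk, the genes of their dimer partners Nfe2, Nfe2l1, Nfe2l2, Nfe2l3, Bach1 and Bach2, and Keap1 were followed across 7 tissues of lean mice. The 10 genes were chosen by name, and their names stand at 13 of the 94339 loci of the deposited table, which lists 50354 gene names. RNA-Seq libraries of rRNA-depleted total RNA were made from liver, kidney, cortex, skeletal muscle, interscapular brown adipose tissue (BAT), visceral adipose tissue (VAT) and subcutaneous adipose tissue (SCAT). All 7 came from wild-type mice aged 36 weeks on the diet labelled NCD, of the strain labelled C57BL/6 and named C57BL/6N in the study's methods, and each tissue has 1 library. No difference between tissues therefore has a replicate check, no p-value was computed, and it cannot be said which neighbours in an order of tissues differ beyond the spread between animals. The values are FPKM, fragments scaled for transcript length and library size, so levels of different genes can be set side by side; without fragment counts, neither the depth nor the precision of a value is known.

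Small MAF proteins carry a basic leucine zipper that binds DNA but have no activation domain of their own, and what a site does depends on the partner they pair with. The cap'n'collar (CNC) proteins are mostly activating partners: NRF2, made from Nfe2l2, drives antioxidant and detoxifying genes, NRF1, made from Nfe2l1, drives proteasome subunit genes, and NF-E2 p45, made from Nfe2, serves red cell precursors and megakaryocytes. BACH1 and BACH2 are related partners that repress, BACH1 being released from DNA by haem and BACH2 acting mainly in lymphocytes. KEAP1 is the adaptor that hands NRF2 to a CUL3 ubiquitin ligase for degradation. Both NRF2 and NRF1 are set largely at the protein level, which RNA-Seq does not measure.

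The pairs bind the antioxidant response element, whose core TGACNNNGC was searched on both strands in RefSeq promoter windows (GRCm38.p6, 250 bases before to 50 after each start). Of the members, 9 have a window, and 4 of these hold the core: all 3 small MAF genes and Nfe2l2. The windows of Nfe2l1, Nfe2l3, Bach1, Bach2 and Keap1 do not hold these letters. Among all 27025 gene symbols with a window, 13.99% hold the core, and among 21 genes of an NRF2-linked list described later 8 do, against 4 of 25 proteasome genes. The 4 member stretches are shown on the strand of the gene, with the core or its reverse complement in capitals, because they show where the letters of a site for these factors lie in the factors' own genes.
Maff (chr15:79346484-79346543, plus strand): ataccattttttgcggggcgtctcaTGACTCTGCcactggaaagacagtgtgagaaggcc
Mafg (chr11:120633735-120633794, minus strand): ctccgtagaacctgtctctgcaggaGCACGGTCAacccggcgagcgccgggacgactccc
Mafk (chr5:139791498-139791557, plus strand): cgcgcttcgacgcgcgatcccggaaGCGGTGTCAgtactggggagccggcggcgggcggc
Nfe2l2 (chr2:75704869-75704913, minus strand): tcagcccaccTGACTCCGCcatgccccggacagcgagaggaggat

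Another form, TGANTCAGC, which holds the AP-1 centre that NF-E2 and BACH sites share, is in 1.365% of all symbols' windows, in 0 of the 9 member windows and in 4 of the 21 NRF2-linked ones. The letters TGACTCAGC match both forms, and TGAGTCAGC matches the second alone. The 4 stretches are given to compare with the member stretches, which lack this centre; a match is a description of the letters and not a measured binding site.
Me1 (chr9:86695886-86695945, minus strand): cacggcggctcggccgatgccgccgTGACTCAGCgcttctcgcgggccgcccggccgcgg
Prdx1 (chr4:116685441-116685500, plus strand): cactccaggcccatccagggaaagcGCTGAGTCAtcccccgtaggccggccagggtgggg
Srxn1 (chr2:152105454-152105513, plus strand): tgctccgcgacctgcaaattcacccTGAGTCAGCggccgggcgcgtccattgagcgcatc
Osgin1 (chr8:119437023-119437082, plus strand): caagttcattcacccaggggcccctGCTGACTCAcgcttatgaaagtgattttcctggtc

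The libraries carried the defining transcripts of their labels: Apoa1 in liver, Umod in kidney, Snap25 in cortex, Ckm in muscle, Ucp1 in BAT and Adipoq in the fat depots were each far above the tissues that should lack them. SCAT also carried all 5 lymphocyte markers at 3.396 to 50.6 FPKM and all 3 pancreatic acinar markers at 15.7 to 35.9 FPKM, and VAT carried epididymal transcripts up to 1386 FPKM and all 3 hepatocyte markers at 17.7 to 252.7 FPKM. When libraries were scaled by the median ratio over 7831 genes, muscle values shifted by -0.39, BAT by -0.29, VAT by 0.42, SCAT by 0.52 and cortex by 0.20 on the log2 scale, and liver and kidney by less than 0.1. Values are given as deposited, and scaled values stand beside them where scaling alters which tissue is highest or lowest for a member.

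Across the 10 genes, muscle was the tissue with the highest FPKM for 6 (Nfe2l1, Nfe2l2, Nfe2l3, Bach1, Keap1 and Mafk), liver for Mafg and Maff, and SCAT for Bach2 and Nfe2. Of 14898 protein-coding names with at least 1 FPKM in any tissue, 24% were highest in muscle. With median ratio scaling, 3 of the 10 remained highest in muscle (Nfe2l1, Nfe2l2 and Keap1), and 15.1% of all names. Cortex was lowest for 4 genes (Nfe2l2, Bach1, Bach2 and Mafk) on either scale, against 22.7% of all names. The highest tissue lay at least 4-fold above the lowest for 6 of the 10, near the 70% of all names for which it did. No member was enriched in a tissue, meaning at least 1 FPKM and at least 4-fold above each of the others, a pattern that 21.3% of all names had. Folds are on the log2(FPKM + 0.1) scale, which understates differences of low genes.

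**Figure D1:**
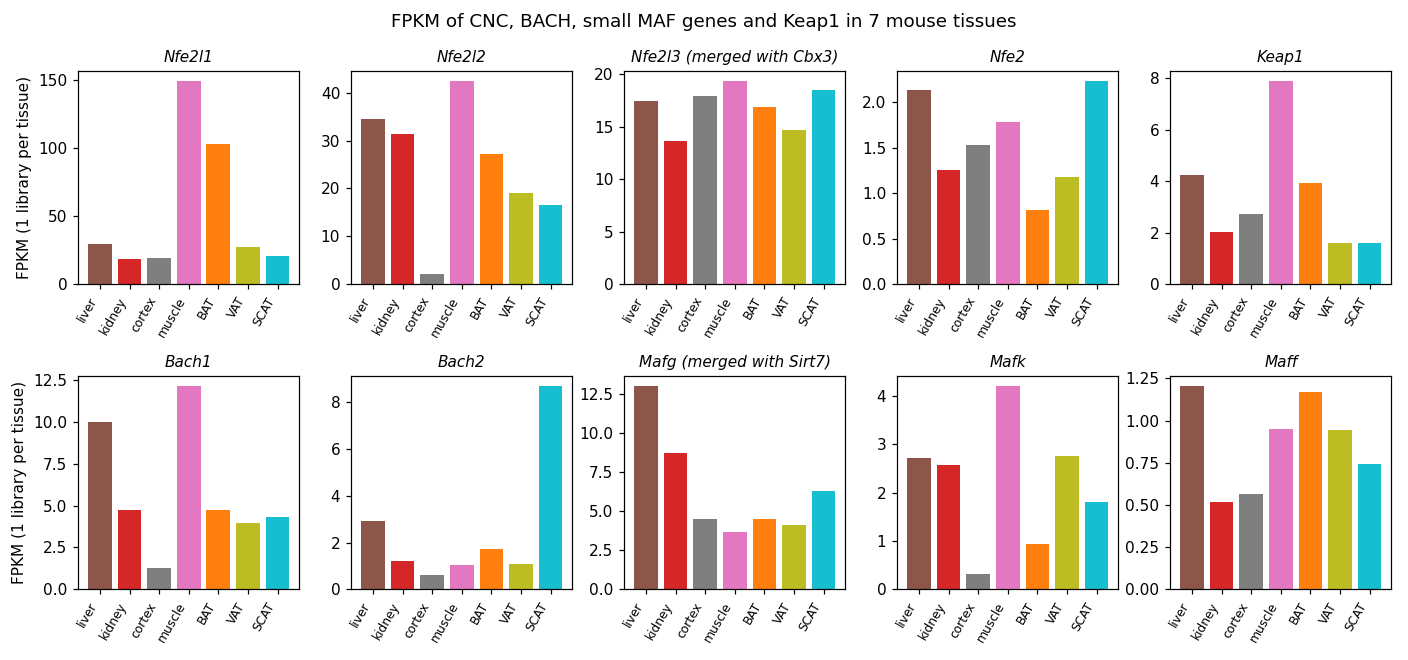
FPKM of the 10 genes (vertical axes, each from 0 and with its own scale) in 7 tissues, 1 bar per library; Nfe2l3 and Mafg share their loci with Cbx3 and Sirt7. Nfe2l1 stands out in muscle and BAT (149 and 103 FPKM), Nfe2l2 is lowest in cortex (2.06 FPKM), and Bach2 is highest in SCAT (8.67 FPKM).

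Nfe2l1 split the tissues into a high group, muscle and BAT, and a low group of the other 5. It had 149 FPKM in muscle and 103 FPKM in BAT. The other 5 tissues lay close together, with 29.8 FPKM in liver, 27.1 in VAT, 20.5 in SCAT, 19.5 in cortex and 18.7 in kidney. Muscle was 1.45-fold above BAT and 4.99-fold above liver, and BAT was 3.45-fold above liver. With median ratio scaling the order of the first 2 tissues held, with 114 in muscle, 84.1 in BAT and 36.3 in VAT. BAT thus stood above both white depots, by 3.79-fold over VAT, in a gene whose product keeps proteasome supply in step with demand. Skeletal muscle fibre markers were also present in the BAT library, where Ckm had 166 FPKM against 8592 in muscle, and their part in the BAT level of Nfe2l1 was not tested. Nfe2l1 is annotated on the minus strand of chromosome 11 of GRCm38, from 96817414 to 96829968. The locus used runs from 96789040 to 96830671, the same bounds as an opposite-strand locus that carries the names Cbx1 and Nfe2l1. That locus had 78.4 FPKM in muscle and 49.4 in BAT, so reads of Nfe2l1 and Cbx1 may be shared. The partner sums and shares given later include the Nfe2l1 locus used here.

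Nfe2l2, in contrast, was spread over all tissues except cortex. It had 42.4 FPKM in muscle, 34.5 in liver, 31.4 in kidney, 27.3 in BAT, 19.1 in VAT and 16.4 in SCAT, a gradual series with no gap. Cortex followed with 2.06 FPKM, 7.66-fold below SCAT and 19.7-fold below muscle. Under median ratio scaling muscle and liver were level at 32.5 and 32.4, and cortex stayed lowest at 2.36. In bulk tissue, fewer cells that express a gene and less RNA per cell cannot be told apart. Nfe2l2 lies on the minus strand of chromosome 2, from 75675513 to 75704641.

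Keap1, whose product restrains NRF2, followed another order. It had 7.90 FPKM in muscle, 4.25 in liver, 3.92 in BAT, 2.71 in cortex, 2.02 in kidney, 1.61 in VAT and 1.60 in SCAT. Cortex, where Nfe2l2 was lowest, was thus in the middle for Keap1, and with median ratio scaling it was still in the middle while kidney (1.95) became lowest. Per length, Nfe2l2 had 15.5 times the FPKM of Keap1 in kidney and 11.9 times in VAT, but 0.759 times in cortex. This ratio is lower when only loci on the annotated strands are used (3.59 in kidney and 0.196 in cortex), and cortex was the lowest tissue and kidney the highest in either case. The gene is on the minus strand of chromosome 9, from 21229730 to 21239361, and the antisense transcript Gm16754 overlaps it. Gm16754 had values close to those of Keap1 (8.02 FPKM in muscle, 4.87 in liver, 2.42 in kidney), and although the libraries were made with a directional kit, which keeps the strand, it is not stated whether the authors' counting used it, so the reads of the pair cannot be told apart.

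Nfe2l3, the third NRF gene, could not be read on its own. Its name shares a locus on chromosome 6 (51432670 to 51483704) with Cbx3, a heterochromatin protein gene used by most cells. The locus ranged from 13.6 FPKM in kidney to 19.3 in muscle, a 1.42-fold span and the narrowest of the 10 (with median ratio scaling, from 13.1 in kidney to 26.4 in SCAT), and how much of this belongs to Nfe2l3 is unknown. The shares of partner FPKM given later are therefore also computed without this locus.

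Nfe2 was low in every tissue. It had 2.23 FPKM in SCAT, 2.13 in liver, 1.78 in muscle, 1.53 in cortex, 1.26 in kidney, 1.18 in VAT and 0.817 in BAT. BAT stayed lowest with median ratio scaling (0.667), whereas VAT (1.58) then lay above muscle (1.36) and kidney (1.21). The summed FPKM of 7 erythroid markers, among them 4 globins, was 2411 in VAT, 2182 in BAT and 160.5 to 1316 in the other tissues, lowest in cortex. The 5 platelet markers had no common order: their sum was highest in muscle (49.0), mostly from Gp1ba (32.4), and their median in VAT (3.50, with 1.13 in muscle). The Nfe2 locus has the same bounds as that of Hnrnpa1 on the opposite strand (5.76 to 12.9 FPKM), so some of its reads may belong to that more abundant gene.

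The repressor Bach1 had its highest levels in muscle and liver. It had 12.1 FPKM in muscle and 9.97 in liver, then 4.75 in kidney, 4.75 in BAT, 4.29 in SCAT and 3.97 in VAT, which lay close together. Cortex was lowest with 1.25 FPKM, 3.01-fold below VAT. With median ratio scaling liver (9.37) and muscle (9.26) were level. At the loci used, Bach1 and Nfe2l2 had muscle and liver at the top and cortex at the bottom (on the annotated strand, kidney was above liver for Nfe2l2), and the ratio of Nfe2l2 to Bach1 ranged from 1.65 in cortex to 6.61 in kidney. Bach1 lies on the plus strand of chromosome 16, from 87698945 to 87733346.

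Bach2 had a different distribution from its paralog. It reached 8.67 FPKM in SCAT and was 2.94 in liver, 1.73 in BAT, 1.21 in kidney, 1.07 in VAT, 1.05 in muscle and 0.634 in cortex. SCAT was 2.89-fold above liver and 7.51-fold above VAT, and with median ratio scaling it met the 4-fold rule for enrichment in SCAT. It was the tissue where Bach2 exceeded Bach1, by 2.02 times, while Bach2 had 0.0871 to 0.508 times the Bach1 FPKM in the other 6; with annotated-strand loci, the excess in SCAT was 6.52 times, and Bach2 also exceeded Bach1 in cortex (1.44 times) and BAT (1.07 times). In the same library the B cell genes Ms4a1 and Cd79a had 50.6 and 35.6 FPKM, and the summed FPKM of the 5 lymphocyte markers was 120.7 in SCAT and 0.241 to 4.20 elsewhere. The part of lymphocytes in the Bach2 level of SCAT was not tested. Without that library, the range of Bach2 over tissues on the log2 scale was 2.05 in place of 3.58.

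Nfe2l1, Nfe2l2 and Bach1 each have 2 loci with the same bounds on opposite strands, and the locus with the higher FPKM was used throughout. For Nfe2l2 and Bach1 the locus used lies, by its place in the table, on the other strand than the gene does, and the annotated strand has the lower values. The 2 loci of each gene kept a similar ratio in all 7 tissues: 2.83 to 3.23 for Bach1, 3.87 to 5.52 for Nfe2l2 and 1.45 to 2.09 for Nfe2l1, whose second locus also carries the name Cbx1. The tissue order thus depends little on the locus, whereas the level, and any ranking of these genes against each other, does. On the annotated strand Nfe2l2 had 7.69 FPKM in muscle, 7.25 in kidney, 7.06 in liver and 0.531 in cortex, and Bach1 had 4.20 in muscle, 3.33 in liver and 0.442 in cortex. Such pairs are common, since 51.9% of the 14898 expressed protein-coding names have loci of the same bounds on both strands.

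**Figure D2:**
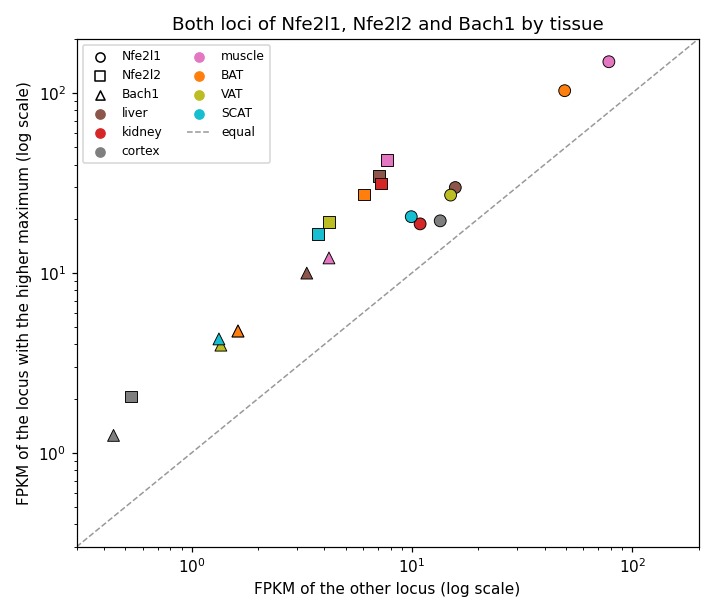
FPKM of the used locus (vertical) against the other locus of the same gene (horizontal), both on log scales, with 1 point per tissue for Nfe2l1, Nfe2l2 and Bach1. For each gene the 7 points run parallel to the line of equal values, at ratios of 1.45 to 2.09, 3.87 to 5.52 and 2.83 to 3.23.

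The small MAF genes were each below Nfe2l1 in every tissue. The Mafg locus was above Nfe2l2 in cortex (4.50 against 2.06 FPKM) and, when annotated-strand loci were used, also in liver, kidney and SCAT. Mafk, like Bach1, was highest in muscle (4.19 FPKM) and lowest in cortex (0.325), with 2.76 in VAT, 2.71 in liver, 2.57 in kidney, 1.80 in SCAT and 0.931 in BAT; under median ratio scaling VAT (3.70) was above muscle (3.21). Maff stayed between 0.515 FPKM in kidney and 1.20 in liver, and with scaling VAT (1.26) was above liver (1.13). The Mafg locus, merged with that of the deacetylase gene Sirt7 on chromosome 11 (120618372 to 120633600), had 13.0 FPKM in liver, 8.71 in kidney, 6.32 in SCAT and 3.68 to 4.50 in the others; with scaling SCAT (9.03) was above kidney (8.40). As deposited, muscle was the lowest tissue for Mafg and the highest for Mafk. The loci of Maff and Mafk have the same bounds as opposite-strand loci that carry Tmem184b and, for Mafk, Psmg3 and Tmem184a, and that of Bach2 the same as Bach2os (0.115 to 1.03 FPKM), so reads of these genes may be shared as well.

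Set against each other, the CNC and BACH genes without Nfe2l3 summed to 207 FPKM in muscle, 138 in BAT, 79.4 in liver, 57.4 in kidney, 52.4 in VAT, 52.2 in SCAT and 24.9 in cortex. The small MAF sum, which includes the merged Mafg locus, ran from 5.39 in cortex to 16.9 in liver, and Mafk and Maff alone from 0.891 in cortex to 5.14 in muscle. Partner FPKM was 23.4 times small MAF FPKM in muscle and 20.9 times in BAT, and 4.63 to 6.70 times in the other 5 tissues. With annotated-strand loci the same 2 tissues stood apart (18.6 and 17.2 times, against 2.55 to 4.46). These ratios rest on the merged Mafg locus. Set against Mafk and Maff alone, partner FPKM was 65.6 times in BAT, 40.2 in muscle, 28.0 in cortex and 14.1 to 20.5 in the other 4 tissues, so that BAT passed muscle and cortex came nearer to both.

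Nfe2l1 made up 78.1% of partner FPKM in cortex, 74.9% in BAT and 72.2% in muscle when Nfe2l3 was left out. Its share was 51.7% in VAT, 39.4% in SCAT, 37.6% in liver and 32.6% in kidney. Nfe2l2 was the larger component in kidney (54.8%) and liver (43.5%) and was 8.25% in cortex. In cortex the high Nfe2l1 share thus came with a low Nfe2l1 level (19.5 FPKM), whereas in muscle and BAT its level was high as well. The lead of Nfe2l2 in liver and kidney rests on the locus: with annotated-strand loci Nfe2l1 exceeded Nfe2l2 in all 7 tissues, by 2.58 times in kidney, 4.22 times in liver and 36.6 times in cortex. Bach1 and Bach2 together held the largest share in SCAT, where Bach2 was 16.6% and Bach1 8.23%, and Bach1 reached 12.6% in liver.
With the merged Nfe2l3 locus counted in, the Nfe2l1 share was 66.7% in BAT, 66.0% in muscle, 45.5% in cortex, 40.3% in VAT, 30.8% in liver, 29.1% in SCAT and 26.4% in kidney.

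**Figure D3:**
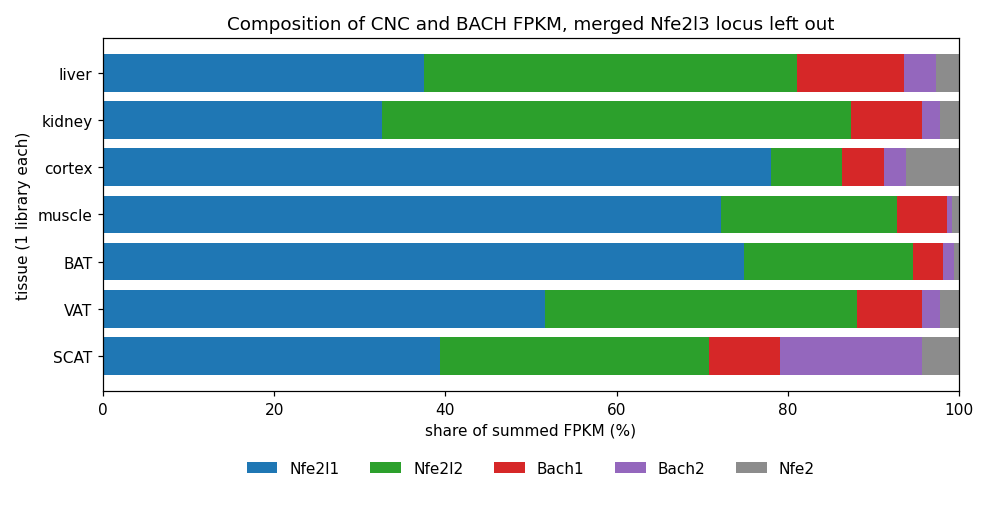
Share of each gene in the summed FPKM of Nfe2l1, Nfe2l2, Bach1, Bach2 and Nfe2 (horizontal axis, percent) in each tissue library, with the merged Nfe2l3 locus left out and the higher locus used for each gene. Nfe2l1 fills 72.2 to 78.1% in cortex, muscle and BAT, and Bach2 16.6% in SCAT.

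Genes linked to NRF2 by their function were then read in the same libraries. Of the 24 genes listed, 23 had at least 1 FPKM in any tissue; Gpx2 did not. The highest tissue was liver for 7 of the 23, BAT for 7, kidney for 5, muscle for 3 and cortex for 1, and cortex was lowest for 10 and SCAT for 8. Of all names, 15.5% were highest in liver, 15.1% in BAT, 10.6% in kidney and 24% in muscle, and 22.7% were lowest in cortex and 23.9% in SCAT. With median ratio scaling cortex was lowest for 10 (20.5% of all names), muscle for 6 (18.6%) and SCAT for 4 (12.9%). The median difference from the mean of the other tissues was 1.03 on the log2 scale in kidney, 0.93 in liver and 0.78 in BAT, and -1.38 in cortex and -1.37 in SCAT, where that of all expressed names was -0.02, -0.07, 0.12, -0.22 and -0.57. Muscle, where Nfe2l2 was highest, had a median of -0.36, against 0.16 for all names.

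Of these genes 5 were enriched in a tissue, near the 21.3% of all names. In liver they were Gsta3, a glutathione transferase whose locus also carries Tmem14a (442 FPKM, 12.0-fold above the next tissue), Osgin1 (21.7 FPKM, 5.67-fold) and the epoxide hydrolase Ephx1 (106 FPKM, 5.66-fold), and 3.38% of all names were enriched in liver. In BAT they were Tkt (338 FPKM, 7.64-fold) and Taldo1 (509 FPKM, 5.47-fold), enzymes of the non-oxidative pentose phosphate pathway. Gclc and Gclm, which encode the subunits of the enzyme that starts glutathione synthesis, were highest in liver and kidney: Gclc had 90.8 FPKM in liver and 39.4 in kidney and at most 6.62 elsewhere, and Gclm had 63.0 and 72.2 and at most 11.7 elsewhere. Nqo1, often used as a readout of NRF2, had 25.05 FPKM in kidney and 17.3 in muscle but 2.25 in liver. Srxn1, which repairs peroxiredoxins, was lowest in SCAT (1.00 FPKM) and 5.84 to 15.0 elsewhere.

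Among 9 haem and iron genes, several of which BACH1 represses and 3 of which (Hmox1, Ftl1 and Fth1) are also in the NRF2-linked list, cortex was lowest for 6 (22.7% of all names), with a median difference of -2.06 from the other tissues against -0.22 for all names. Liver was highest for 4 (15.5% of all names), with a median of 1.30 against -0.07. With median ratio scaling both counts were 5. Alas1, which starts haem synthesis, had 504 FPKM in liver, 159 in BAT and 16.7 in cortex. The iron exporter gene Slc40a1 had 115 FPKM in liver and 53.7 in muscle, and the biliverdin reductase gene Blvrb 55.7 in liver and 15.7 in BAT. The ferritin genes were abundant throughout, with Ftl1 at 1037 FPKM in liver and 40.5 in cortex and Fth1 at 857 in kidney and 168 in SCAT. Hmox1, the haem oxygenase gene that BACH1 is best known to repress, ranged from 0.545 FPKM in cortex to 5.12 in BAT, so that the tissue with the lowest Bach1 level also had the lowest Hmox1 level.

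Genes of the constitutive proteasome, which NRF1 is known to drive, varied together across tissues. Of 31 subunit genes, all expressed, 27 were highest in muscle and the other 4 (Psma1, Psma2, Psmb3 and Psmb5) in BAT. Of the 31, 30 were lowest in SCAT. Among all names, 24% were highest in muscle and 15.1% in BAT, and 23.9% were lowest in SCAT. Under median ratio scaling 21 were highest in muscle (15.1% of all names) and 27 lowest in SCAT (12.9%). The median subunit had 87.7 FPKM in muscle, 57.5 in BAT, 56.4 in liver, 42.3 in kidney, 29.5 in cortex, 25.4 in VAT and 21.6 in SCAT. Muscle and BAT were the first 2 tissues for Nfe2l1 as well, but the liver median was close to that of BAT while liver had 29.8 FPKM of Nfe2l1 against 103. With median ratio scaling the proteasome median was 67.1 in muscle, 52.9 in liver and 46.9 in BAT, so that liver passed BAT. The median difference from the other tissues was 1.29 in muscle and -1.41 in SCAT, against 0.16 and -0.57 for all names. No subunit was 4-fold above every other tissue.

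The lead of muscle over the next tissue differed between subunits and was largest for Psmd7 (2.74-fold, 40.0 FPKM) and Psmd6 (2.64-fold, 110.4 FPKM) among the 31. Psmd8 had 230.5 FPKM in muscle and 119 in BAT, Psmb7 198 and 87.6, and Psma3 209.8 and 153. Psmb6, Psmb1 and Psmc6, with 143 to 168 FPKM in muscle, were 1.36-fold, 1.26-fold and 1.33-fold above BAT. Psmd3 (1.02-fold) and Psma5 (1.03-fold) were nearly level between muscle and the next tissue. The 3 immunoproteasome genes had another order. Psmb8 (28.9 FPKM), Psmb9 (8.63) and Psmb10 (20.5) were all highest in SCAT, as were 8.37% of all names (15.9% with scaling, under which the 3 genes were again highest there). SCAT is the library with the lymphocyte markers, whose part in these levels was not tested.

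**Figure D4:**
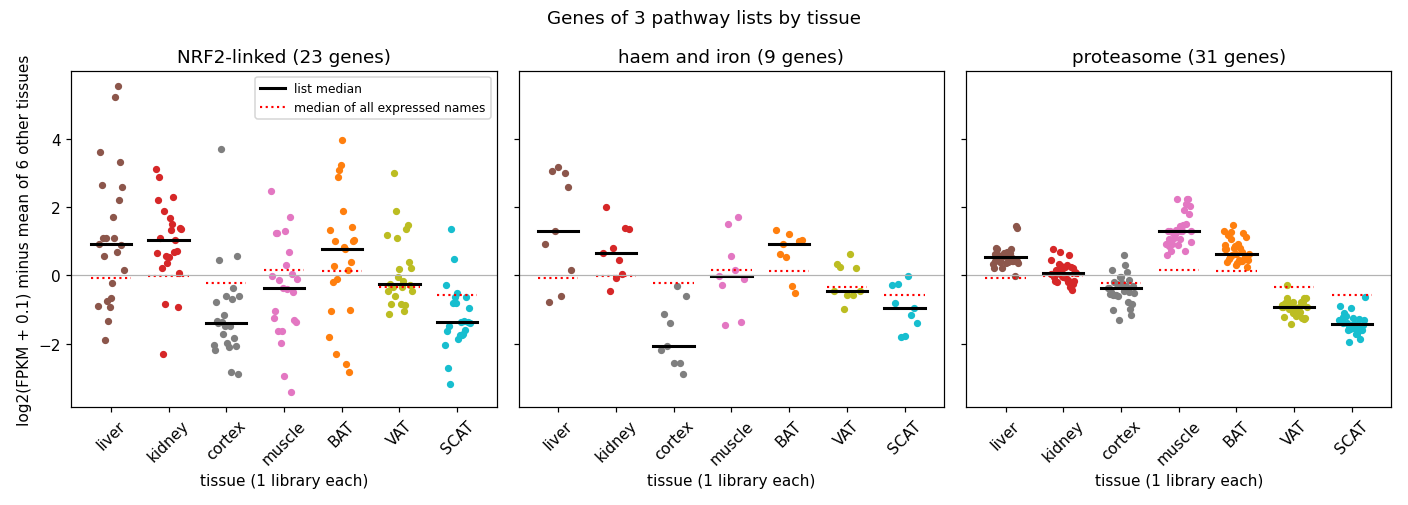
Difference of each gene's log2(FPKM + 0.1) in a tissue from its mean over the 6 other tissues (vertical axis), for 23 NRF2-linked, 9 haem and iron and 31 proteasome genes; black bars are list medians and dotted red bars the medians of all 14898 expressed names. The proteasome genes lie tightly together, with medians of 1.29 in muscle and -1.41 in SCAT, while the NRF2-linked genes scatter widely within each tissue.

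The genes that process NRF1 and turn over NRF2 were read last. Ddi2, the protease that releases NRF1 from the endoplasmic reticulum membrane, had 22.1 FPKM in liver, 11.1 in muscle and 1.60 to 4.22 elsewhere, at a locus shared with Rsc1a1. Vcp, which extracts NRF1 from that membrane, had 109 FPKM in muscle and 16.2 in SCAT, and Ngly1, which removes its glycans, 24.8 in muscle and 4.92 in cortex. Syvn1 and Sel1l, of the ubiquitin ligase that marks NRF1 in the membrane, were highest in liver (9.95 and 29.5 FPKM). Cul3, the ligase scaffold that KEAP1 works with, had 172 FPKM in muscle and 25.97 to 58.1 in the other tissues, 2.95-fold above BAT, and its partner Rbx1 24.4 in muscle and 6.16 to 18.02 elsewhere. Sqstm1, whose product binds KEAP1 and draws it away from NRF2, was likewise highest in muscle (238 FPKM) and lowest in SCAT (31.1). Muscle was highest for 4 of the 7 turnover genes, against the 24% of all names given above. Fbxw7, a ubiquitin ligase receptor, was in contrast highest in cortex (23.9 FPKM, with 8.63 in muscle).

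The profiles most like each partner were found among all expressed protein-coding names by the root mean square difference of centred log2 values over the 7 tissues. For Nfe2l1 they were Cbx1 (0.167) and Nek9 (0.243). The Cbx1 locus is the second locus of Nfe2l1 itself, with the same bounds, so that match does not describe Cbx1 on its own. For Nfe2l2 they were Tmco4 (0.385) and the integrin gene Itgb1 (0.388), for Bach1 Zfp568 (0.187) and Kat2b (0.268), and for Keap1 Abcf3 (0.155) and Josd2 (0.156). Bach2 was closest to Tmc8 (0.311) and to Rel (0.392), a lymphocyte NF-kB subunit gene, which were likewise highest in SCAT with 2.48 and 2.03 FPKM. Nfe2 was closest to Nemp1 (0.124) and Raver2 (0.153), and the merged Nfe2l3 locus to Dnajc17 (0.0779) and Ing1 (0.0922).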

How the data were processed

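RNA-Seq of 7 tissues, 1 library each, was analysed. Per the methods and the labels, the authors removed adapters with flexbar and rRNA reads with Bowtie2 2.2.9, aligned to GRCm38 with STAR 2.6.0c, merged cufflinks assemblies and ran cuffdiff (Cufflinks 2.2.1). The authors deposited FPKM per locus; a locus's FPKM for a tissue is equal wherever that tissue recurs in the 21 comparisons. The authors' own fold changes, test statistics, p-values and q-values between tissues were not used. The 151 loci with status FAIL were left out, and 225 zeros with status LOWDATA were set to missing. Where a name has several loci, that reaching the largest FPKM stood for it. Strand was read from the order of loci; 79.6% of expressed protein-coding names (GENCODE, GRCm38) then lie on the annotated strand.

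Values were compared as log2(FPKM + 0.1), with no test. An enriched gene had at least 1 FPKM and was 4-fold above every other tissue. The rule was run only on simulated profiles that were flat apart from small noise and strongly raised genes. That setting is simpler than real tissues and does not show how the rule performs on them. The table gives no counts, so depth is unknown. The members and lists were chosen with earlier results of these data known. Named are the members, genes merged with them, up to 6 genes of each list (the largest enrichment, then the highest FPKM) and the 2 closest profiles; other genes were named after their values were seen. Alternatives covered pseudocount, scaling, locus, failed loci, minimum, fold and left-out libraries. Promoter sequences are from RefSeq (GRCm38.p6). Python 3.11.15, pandas 2.3.3, NumPy 2.4.6 and matplotlib 3.10.9 were used.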

Additional observations from a re-analysis of the deposited data

How the results depend on the processing

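Of 184 values recomputed under alternatives, 170 stayed within 1.5 times of the reported value, with log2 ranges compared as folds. Part of these could not move. All 13 member loci had status OK, so keeping FAIL loci could not alter member values. Scaling a library likewise cannot alter the shares of genes within it. Members with a 4-fold range numbered 4 with a pseudocount of 1 and 7 with median ratio scaling, in place of 6. The alternatives restricted to annotated-strand loci or leaving out merged loci, also from the small MAF sum, were chosen after seeing the data. Members enriched in a tissue numbered 1 (Bach2 in SCAT) with median ratio scaling and 1 with a 2-fold rule, in place of 0, and members highest in muscle 3 with median ratio scaling, in place of 6. Without the VAT library, 8 NRF2-linked genes were enriched in place of 5, since G6pdx, Pgd and Slc7a11 have their second highest level there. The Nfe2l1 share of partner FPKM with the merged Nfe2l3 locus counted in was 47.6% in liver and 42.9% in kidney with annotated-strand loci, in place of 30.8% and 26.4%, since the Nfe2l2 locus is then the lower one. In cortex it was 78.1% without the merged locus, in place of 45.5%. The log2 ranges of Mafk, Bach1 and Bach2 came to 1.97, 2.54 and 2.57 with a pseudocount of 1, those of Nfe2 and Keap1 to 2.10 and 1.58 with scaling, that of Bach2 to 2.05 without SCAT and that of Nfe2l2 to 3.63 on the annotated strand. No paired analysis was possible because, with single libraries, no result comes from a test.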

Other observations

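Of the large MAF genes, which unlike the small ones encode an activation domain, Mafa, Maf and Nrl were read in the same libraries. Mafa, best known from pancreatic beta cells, had 10.5 FPKM in muscle and at most 0.151 in the other tissues, and was enriched there. Maf had 2.11 FPKM in muscle and at most 0.410 elsewhere, and also met the 4-fold rule. Nrl, a photoreceptor gene, was listed at 0 in 6 tissues and had 0.663 FPKM in cortex. As deposited, muscle thus held both the highest Mafk and the highest Mafa and Maf levels, and the lowest Mafg level.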
